A study of Homo sapiens with 6 samples.

Results

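The type I interferon response was examined through 35 interferon-stimulated genes in SK-N-AS neuroblastoma cells in which MYCN could be switched on with tetracycline. The genes were taken from a list of symbols, and all 35 were found among the 60651 gene identifiers of the deposited counts. Of these, 29 reached at least 10 counts in at least 3 libraries and were tested, among 29086 tested genes in all. The remaining 6 (OAS1, OAS2, OASL, MX2, IFI27 and XAF1) were at or close to 0 in all libraries. The question was whether tetracycline-induced MYCN raised or damped the response.

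The established line SK-N-AS derives from a human neuroblastoma without MYCN amplification. All 6 cultures carried an inducible MYCN construct together with the tetracycline repressor, and single clones were kept under G418 and blasticidin selection. The 3 control libraries, labelled ETOH, came from cells without induction, and the 3 MYCN-induced libraries, labelled Tet, from cells given tetracycline for 120 h. Tetracycline given to cells that lack the MYCN construct was not analysed here, so effects of MYCN and of the drug cannot be told apart. The labels and methods name no added interferon or virus in either group. Each group of 3 comes, per the methods, from independent experiments.

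Type I interferons bind the receptor IFNAR1/IFNAR2 and activate the kinases JAK1 and TYK2. These phosphorylate STAT2, which joins IRF9 in the complex ISGF3. ISGF3 binds the interferon-stimulated response element (ISRE) in the promoters of many genes, whose products sense viral RNA, block viral entry and translation, or attach the ubiquitin-like protein ISG15 to other proteins. MYCN-amplified neuroblastomas are known for low expression of immune genes.

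The element is shown first, because most of these promoters hold it. RefSeq promoter windows of GRCh38.p14, running from 250 bases before to 50 bases after the transcription start, were held for 28 of the 35 genes (36 windows). The ISRE core, which is TTTC, then any 2 bases, then TTTC again, was searched on both strands. It was found in 24 of the 36 windows (66.7%), against 3.57% of all 35116 windows. By gene it was found in 20 of the 28 (71.4%), against 4.38% of all 27305 genes. Windows of a gene can overlap, so the count of windows holds some sites more than once, as in IFI27 and IFI44. In the following 30-base stretches, written 5′ to 3′ on the strand of the gene, capitals mark the core, which reads GAAA, 2 bases and GAAA where it lies on the other strand. IFIH1, HERC5 and PARP9 are shown because they had the smallest adjusted p of the members with a core, IFI44 because its ratio to a neighbouring gene differed between the groups, and IFIT1, ISG15 and IFITM3 as typical genes of the response whose counts overlapped.
IFIH1, chr2:162318686-162318715, minus strand: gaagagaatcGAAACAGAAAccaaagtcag
HERC5, chr4:88457035-88457064, plus strand: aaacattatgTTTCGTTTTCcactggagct
PARP9, chr3:122564322-122564351, minus strand: gggcgcaaagTTTCAGTTTCgcttccctgg
IFI44, chr1:78649761-78649790, plus strand: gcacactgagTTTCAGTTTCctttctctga
IFIT1, chr10:89392497-89392526, plus strand: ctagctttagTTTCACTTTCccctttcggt
ISG15, chr1:1013380-1013409, plus strand: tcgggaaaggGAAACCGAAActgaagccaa
IFITM3, chr11:320876-320905, minus strand: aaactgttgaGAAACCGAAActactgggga

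The ISG15, IFITM3 and IFIT1 promoters hold a core of the same kind as those of IFIH1 and HERC5, and each of these genes has further matches not shown. Whether the core relates to the fold changes was not tested. The gamma-activated motif (GAS, TTCNNNGAA) was found in 10 of the 36 windows (27.8%), against 7.66% of all windows. The E-box CACGTG, the sequence MYC proteins favour, was found in 3 (8.33%), belonging to HERC5, IRF9 and ISG20, against 7.26% of all windows. The core was not found in the windows of HERC6, IFI35, IRF1, IRF9, OAS1, SAMD9L, STAT2 and XAF1. A match describes letters in a window and was not tied to binding in these cells.

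MYCN itself (chromosome 2 of GRCh38, 15940550 to 15947007) was counted at 30.3, 35.5 and 32.4 CPM (counts relative to the library total, scaled by the TMM method) in the control libraries and at 211, 221 and 199 CPM in the induced libraries. All induced libraries lay far above all controls. MYCN rose by a log2 fold change of 2.68 (SE, its standard error, 0.08, edgeR adjusted p = 4.2e-05). Total counts ran from 64500589 to 102249336 per library, so 1 count corresponded to 0.00978 to 0.0155 CPM. The adrenergic neuroblastoma markers HAND2 and GATA3 were present at means of 208 and 60.7 TPM (counts per exon length, scaled to the same total in each library), whereas TH stayed at 0.311 to 0.776 TPM. Of the mesenchymal markers, VIM was at 129 TPM and FN1 at 4.39 TPM, and CD44 was at 0 in every library. FN1 fell by -0.71 on the log2 scale (adjusted p = 0.033 by edgeR). Of the 7 tested mesenchymal markers, however, 5 lay above 0 and 2 below, with a median of 0.20. The 8 adrenergic markers had a median of -0.32, with 3 above 0 and 5 below. EdgeR called 1 of these 8 lower, where 2.38% of all tested genes were called lower. Of the leukocyte markers, CD3E and MS4A1 were at 0 in every library, and the 9 markers together summed to 4 to 4.85 TPM in control and 3.96 to 4.09 TPM in induced libraries. Induced replicate 3 stood apart from the rest. Its score was 45.7 on principal component 1 (49.4% of the variance), where induced replicates 1 and 2 scored 7.69 and 7.83 and the controls -27.6 to -15. Genes of the integrated stress response moved with it, with a median of 2.88 on the log2 scale above the control mean in that library and of 0.93 and 0.51 in induced replicates 1 and 2. Values without this library are therefore given for members whose call or direction turned with it and for some others.

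None of the 29 tested interferon-stimulated genes passed an adjusted p of 0.05 in either direction in edgeR's quasi-likelihood test. The background is 1.02% of all 29086 tested genes called higher and 2.38% called lower (3.4% in either direction), and a count of 0 among 29 genes is close to it and is by itself no result about the members. At an unadjusted p under 0.05, 3 members were higher (IFIH1, HERC5 and SAMD9L, 10.3% of the tested members) and 2 lower (RSAD2 and PARP9, 6.9%), against 8.13% and 10.6% of all tested genes. The median log2 fold change of the members was 0.05, with 19 above 0 and 10 below, and that of all tested genes was 0.00. Single members ran from -0.39 (RSAD2 and IFI44) to 0.59 (ISG15). In bulk RNA a change in the number of cells expressing a gene and a change in the RNA per cell cannot be told apart.

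**Figure D1:**
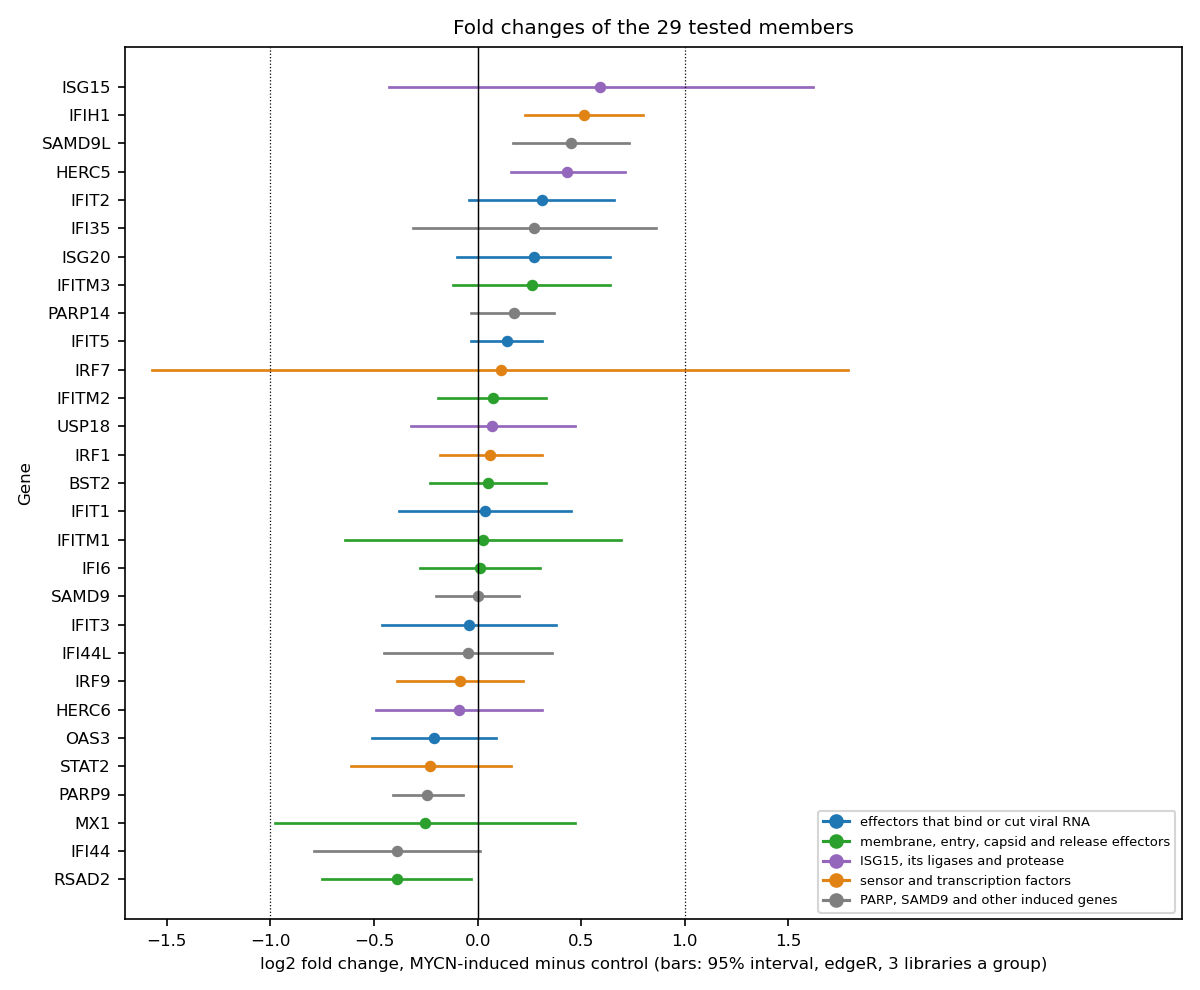
Fold change of each of the 29 tested members (log2, MYCN-induced minus control, 3 libraries a group), with its 95% interval from edgeR as a bar and its role as a colour. The points run from -0.39 to 0.59, and only the bars of ISG15 and IRF7 cross the dotted lines at -1 and 1.

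For most members the data bounded the change relative to the other genes of the library at less than 2-fold. The 92 spike-in sequences were at 0, so a change in the amount of RNA per cell was not measured. The 95% interval of the log2 fold change lay within -1 to 1, a 2-fold change each way, for 27 of the 29 tested members, as it did for 76.8% of all tested genes. It lay within a 1.5-fold change for 15. The exceptions to the 2-fold bound were ISG15, with an interval from -0.43 to 1.62, and IRF7, with an interval from -1.57 to 1.79. DESeq2, run as an alternative to edgeR, called 3 members higher (IFIH1, HERC5 and SAMD9L) and none lower at the same threshold, where it called 3.11% of all genes higher and 4.12% lower. Without induced replicate 3, edgeR called 2 members higher (HERC5 and SAMD9L) and 2 lower (STAT2 and PARP9), where it called 3.68% of all genes higher and 4.44% lower. The sign of the log2 fold change turned without that library in 6 members, none of them called: IFITM1 (0.03 to -0.11), IFITM2 (0.07 to -0.05), HERC6 (-0.09 to 0.01), IRF7 (0.11 to -0.20), IFI35 (0.27 to -0.09) and IFI44L (-0.05 to 0.15).

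In 7 members (24.1%) every induced library lay above every control, in 4 (13.8%) every induced library lay below, and in 18 the groups overlapped. Over all tested genes these shares were 11.5% and 14.7%. The members above were IFIT2, IFIT5, ISG20, HERC5, IFIH1, PARP14 and SAMD9L, and those below were OAS3, RSAD2, PARP9 and IFI44. Relative to the control mean, the median member lay at -0.01, 0.05 and 0.14 on the log2 scale in induced replicates 1, 2 and 3, so the library with the high stress gene level was also the one with the highest median of the members. Whether stress contributed was not tested.

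**Figure D2:**
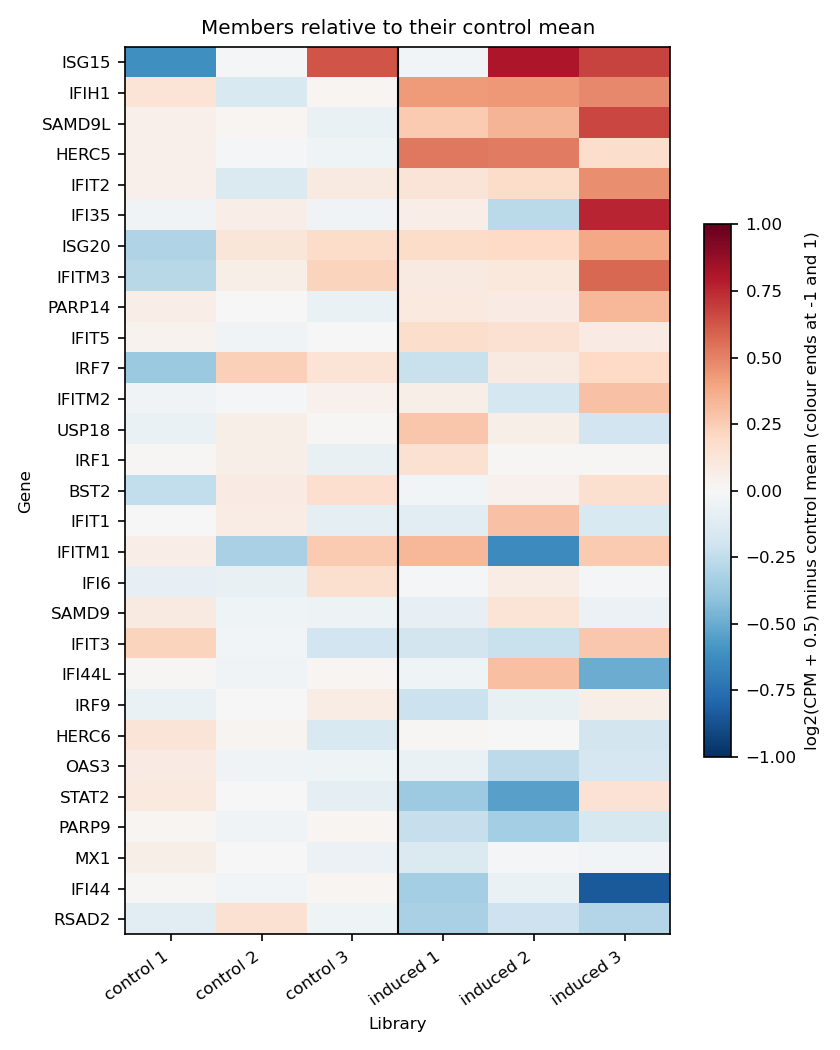
Each tested member (row) in each library (column) as log2(CPM + 0.5) minus the mean of the 3 controls, ordered by fold change, with red above and blue below the control mean. IFIH1 is red in all induced libraries (0.43 to 0.48), while IFI35 is strongly red (0.76) and IFI44 strongly blue (-0.84) in induced replicate 3.

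The level was uneven between members. Of the 35 members, 13 stayed under 1 TPM in every library, 18 were at 1 TPM or more in every library and 6 were above 10 TPM in every library. Summed over the members, the level was 351, 359 and 368 TPM in control and 373, 399 and 378 TPM in induced libraries. The induced sums lay just above the controls. IFITM2 and IFITM3 alone held 53.9% to 63.6% of that sum. With both removed along with IFITM1, the sums were 156, 151 and 149 TPM in control and 147, 171 and 132 TPM in induced libraries, and the groups overlapped. Exon bases are shared with another annotated gene in 14 members, among them IRF9 (42.2%), XAF1 (38.3%), IFITM1 (31.6%), IFI6 (23.1%), IFITM3 (16.3%) and IFIT2 (13.6%). Their counts are less certain for that reason. The shares are of exon bases, and the part of the counts affected was not measured.

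**Figure D3:**
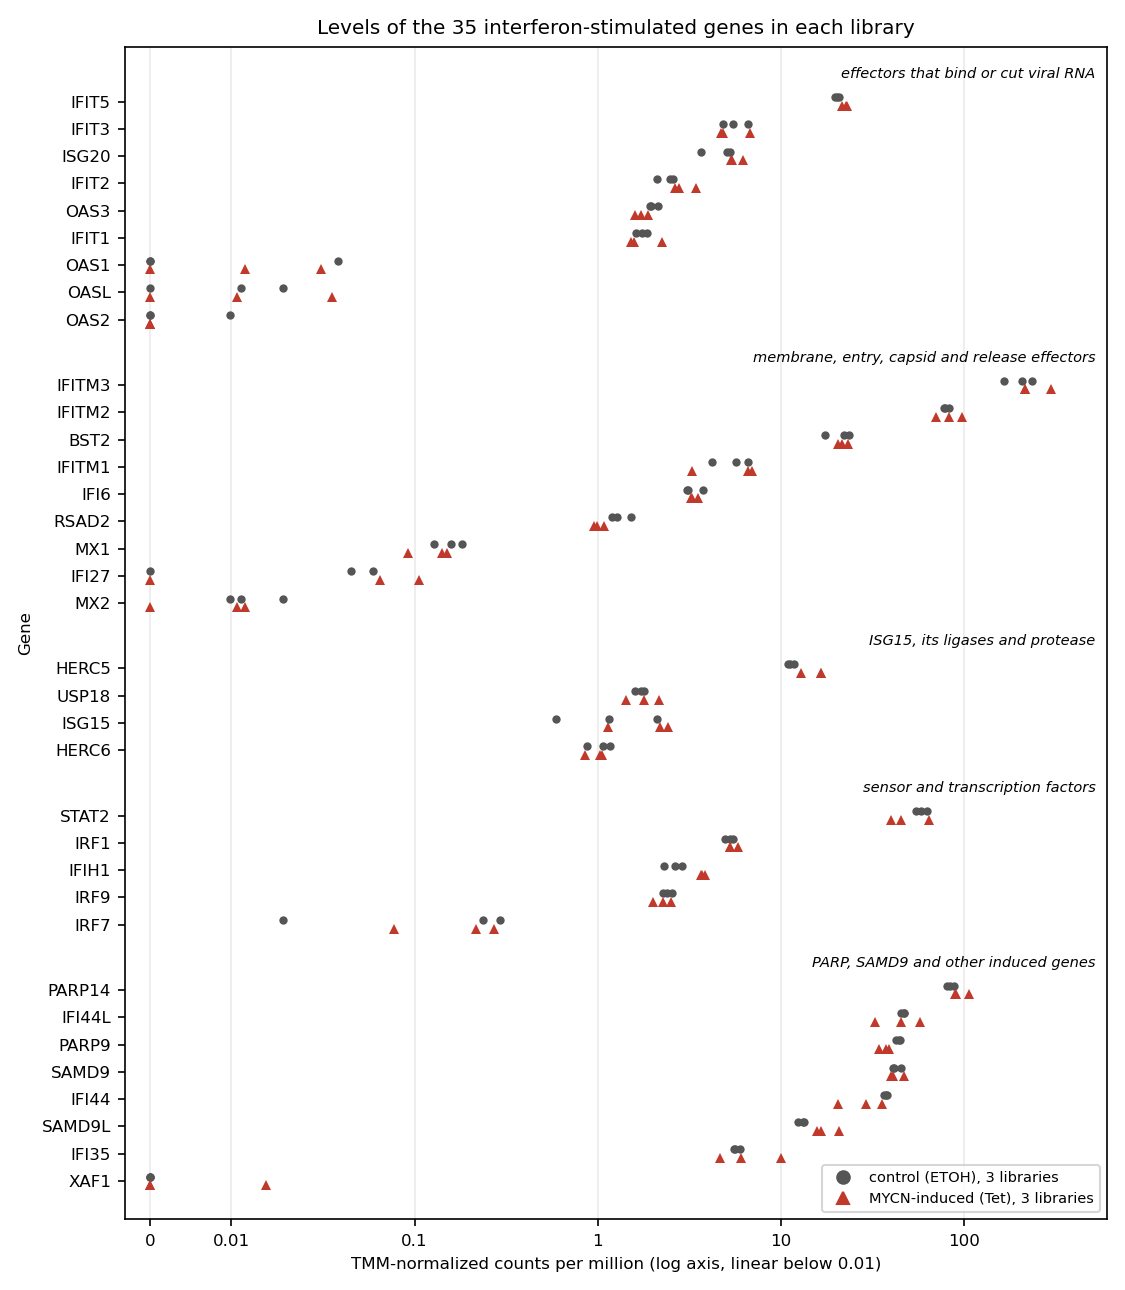
Level of each of the 35 members in each library, in TMM-normalized CPM on a log axis that is linear below 0.01, with controls as circles and MYCN-induced libraries as triangles. Most pairs of groups overlap, and OAS1, OAS2, OASL, MX2, IFI27 and XAF1 sit at or close to 0.

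Among the 9 effectors that bind or cut viral RNA, 6 were tested and none was called, with a median log2 fold change of 0.09. IFIT5, a binder of RNA ends and the most abundant of the group per length (8.02 TPM), was at 20.8, 19.7 and 20.2 CPM in control and 22.9, 22.6 and 21.4 CPM in induced libraries. The groups did not overlap, yet the difference in log2 was only 0.14 (SE 0.08, edgeR adjusted p = 0.374). IFIT3, the partner that stabilizes IFIT1 on RNA, was at 6.57, 5.43 and 4.79 CPM in control and 4.84, 4.70 and 6.79 CPM in induced libraries. Its groups overlapped, with a log2 fold change of -0.04 (SE 0.18) that was -0.22 without induced replicate 3. ISG20, an exonuclease of single-stranded RNA, was at 3.64, 5.06 and 5.28 CPM in control and 5.30, 5.37 and 6.18 CPM in induced libraries. Control replicate 1 was lowest and the other controls lay next to the induced values, and the log2 fold change was 0.27 (SE 0.16, edgeR adjusted p = 0.426). IFIT1, which binds RNA lacking the host cap, differed by 0.04 on the log2 scale (0.16 without induced replicate 3), IFIT2 by 0.31 (0.19 without it) and OAS3, an enzyme that signals for RNA decay, by -0.21.

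The other members of the OAS family were all but silent. OAS1 had 4, 0 and 0 counts in control and 2, 0 and 1 in induced libraries. OAS2 had 1 count in control replicate 3 and 0 in the other 5 libraries. OASL had 2, 1 and 0 counts in control and 0, 1 and 3 in induced libraries. At this depth no difference was detectable in these 3 genes. OAS3, which lies between OAS1 and OAS2 on chromosome 12 (112938051 to 112976460), was thus the only one of the 4 family members listed with measurable counts, at 1.92 to 2.14 CPM in control and 1.59 to 1.88 CPM in induced libraries.

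The membrane, entry, capsid and release effectors held the most abundant members. IFITM3, which blocks fusion of viruses in endosomes, averaged 127 TPM and was at 164, 207 and 233 CPM in control and 213, 215 and 297 CPM in induced libraries. Control replicate 1 was lowest and induced replicate 3 highest, and the rest overlapped. The log2 fold change of 0.26 (SE 0.16, edgeR adjusted p = 0.46) was 0.09 without induced replicate 3. IFITM2, its close relative, averaged 88.3 TPM and was at 77.7, 78.7 and 82.0 CPM in control and 82.8, 70.4 and 97.5 CPM in induced libraries. The induced values spanned the controls on both sides, with a log2 fold change of 0.07 (SE 0.11). BST2, the tetherin that holds budding virions at the surface, averaged 31.7 TPM and was at 17.4, 22.0 and 23.4 CPM in control and 20.4, 21.4 and 23.2 CPM in induced libraries. The groups overlapped, with a log2 fold change of 0.05 (SE 0.12). The 3 IFITM genes are near-identical in parts and only unique alignments were counted, so reads from shared stretches may be missing from each.

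RSAD2 (viperin, which makes a chain-terminating nucleotide) was the member furthest below 0 in this group. It was at 1.19, 1.52 and 1.27 CPM in control and 0.955, 1.08 and 0.990 CPM in induced libraries. Every induced library lay below every control, and the log2 fold change was -0.39 (SE 0.15, edgeR adjusted p = 0.227). IFI6 differed by 0.01 and IFITM1 by 0.03 on the log2 scale. MX1, the dynamin-like GTPase that is a classic reporter of interferon exposure, was barely detected, at 0.128 to 0.181 CPM in control and 0.0924 to 0.15 CPM in induced libraries. Its relative MX2 had 2, 1 and 1 counts in control and 0, 1 and 1 in induced libraries. IFI27, a small membrane protein strongly induced by interferon, had 0, 4.5 and 6 counts in control and 0, 6 and 9 in induced libraries. A pair counted on several genes is shared between them, which gives fractions such as 4.5.

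Of ISG15, its ligases and its protease, all 4 were tested and none was called, with a median log2 fold change of 0.25. HERC5, the main ligase that attaches ISG15 to new proteins, was at 11.7, 11.2 and 10.9 CPM in control and 16.5, 16.4 and 12.8 CPM in induced libraries. All induced values exceeded all controls, and induced replicate 3 was the lowest of them. The log2 fold change was 0.43 (95% interval 0.16 to 0.71, SE 0.12, edgeR adjusted p = 0.0992). Without induced replicate 3 it was 0.55 and passed (adjusted p = 0.00774 by edgeR), and DESeq2 on all libraries gave an adjusted p of 0.0186. ISG15 itself was at 0.592, 1.15 and 2.09 CPM in control and 1.14, 2.42 and 2.17 CPM in induced libraries. The controls alone spread more than 3-fold, and the log2 fold change of 0.59 had an SE of 0.44 (adjusted p = 0.536 by edgeR). USP18, the protease that removes ISG15 and also damps the receptor, was at 1.59, 1.78 and 1.72 CPM in control and 2.16, 1.78 and 1.43 CPM in induced libraries. Its induced values lay on both sides of the controls, with a log2 fold change of 0.07 (SE 0.17) and of 0.22 without induced replicate 3. HERC6, the neighbour of HERC5, differed by -0.09 on the log2 scale.

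IFIH1 (MDA5, the cytosolic sensor of long double-stranded RNA, chromosome 2 from 162267074 to 162318684) had the smallest adjusted p of all members. It was at 2.89, 2.29 and 2.63 CPM in control and 3.67, 3.69 and 3.82 CPM in induced libraries. The induced values were close to each other and above all controls. In log2, the difference was 0.52, a fold of 1.43 (95% interval 0.23 to 0.80, SE 0.12, edgeR adjusted p = 0.0722). It was 0.50 without induced replicate 3 (adjusted p = 0.0526 by edgeR), and with DESeq2 on all libraries it passed with an adjusted p of 0.00635. Over the 12 alternatives its adjusted p ran from 0.00635 to 0.322.

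STAT2, the signalling subunit of ISGF3, was at 62.7, 58.3 and 54.4 CPM in control and 45.3, 39.8 and 64.4 CPM in induced libraries. Induced replicates 1 and 2 lay below all controls, whereas induced replicate 3 lay above them. The log2 fold change was -0.23 (SE 0.17, edgeR adjusted p = 0.523) with all libraries. Without induced replicate 3 it was -0.45 and passed (adjusted p = 0.0214 by edgeR), so its call differed with that library. IRF9, the DNA-binding subunit of the same complex, was at 2.27, 2.39 and 2.55 CPM in control and 2.00, 2.26 and 2.52 CPM in induced libraries. Its groups overlapped (log2 fold change -0.09, SE 0.13), and 42.2% of its exon bases are shared with another annotated gene. IRF1 differed by 0.06 on the log2 scale, with 22.9% of its exon bases shared with IRF1-AS1 or another gene on the opposite strand. IRF7, the factor that amplifies interferon production, was near the limit of detection, at 0.0191, 0.293 and 0.237 CPM in control and 0.0770, 0.215 and 0.271 CPM in induced libraries.

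Of the 8 PARP, SAMD9 and other induced genes, 7 were tested and none was called, with fold changes on both sides of 0. IFI44 averaged 26.7 TPM, the most abundant of the group, and was at 37.4, 36.4 and 37.6 CPM in control and 29.2, 35.4 and 20.5 CPM in induced libraries. The controls lay close together, and the induced libraries were lower and scattered. In log2, the difference was -0.39 (SE 0.17, edgeR adjusted p = 0.283) and -0.19 without induced replicate 3. PARP14, an ADP-ribosyltransferase, was at 88.0, 83.4 and 80.2 CPM in control and 89.6, 88.6 and 106 CPM in induced libraries. The induced values were above the controls by a log2 fold change of 0.17 (SE 0.09, edgeR adjusted p = 0.332). SAMD9, a restriction factor of poxviruses, was at 45.1, 41.1 and 40.9 CPM in control and 39.9, 46.6 and 40.6 CPM in induced libraries. Its groups overlapped, with a log2 fold change of 0.00 (SE 0.09).

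SAMD9L, the paralog next to SAMD9, was at 13.4, 13.1 and 12.3 CPM in control and 15.6, 16.4 and 20.8 CPM in induced libraries. All induced values were above all controls, with replicate 3 highest. The log2 fold change was 0.45 (95% interval 0.17 to 0.73, SE 0.12, edgeR adjusted p = 0.0992), and 0.32 without induced replicate 3 (adjusted p = 0.0466 by edgeR). DESeq2 on all libraries gave an adjusted p of 0.0213. PARP9, which works in a complex with the ubiquitin ligase DTX3L, was at 44.2, 42.6 and 44.3 CPM in control and 37.3, 34.4 and 39.0 CPM in induced libraries. It lay below the controls in every induced library, with a log2 fold change of -0.24 (95% interval -0.41 to -0.07, SE 0.07, edgeR adjusted p = 0.127). Without induced replicate 3 the log2 fold change was -0.28 and passed (adjusted p = 0.0378 by edgeR). IFI35 and IFI44L overlapped between the groups, at 0.27 and -0.05 on the log2 scale, and they were at -0.09 and 0.15 without induced replicate 3. XAF1 had 1 count in induced replicate 1 and 0 in the other 5 libraries, which allows up to 0.0293 to 0.0341 CPM in each control (3 counts, counting error only).

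Many members are neighbours that arose by duplication, which allows a comparison within each library that does not depend on scaling between libraries. Of the 35 members, 20 lie within 200 kb of another, forming 12 pairs, of which 9 had both genes tested. In 4 of the 9 pairs the ratio of the counts did not overlap between control and induced libraries, against 20% of the 26924 pairs of consecutive tested genes within the same distance. The pairs differ in kind, because paired members can have other genes between them, as PARP9 and PARP14 have DTX3L. The ratio of IFI44L to IFI44 (chromosome 1, 78619902 to 78664078, with 3650 bases between them) was 1.25, 1.24 and 1.25 in control and 1.54, 1.61 and 1.59 in induced libraries. It was higher in all induced libraries, including replicate 3, in which both genes were lowest. The ratio of HERC6 to HERC5 on chromosome 4 was 0.101, 0.0948 and 0.0803 in control and 0.0635, 0.063 and 0.0665 in induced libraries. The ratio of SAMD9 to SAMD9L on chromosome 7 was 3.37, 3.15 and 3.32 in control and 2.56, 2.84 and 1.95 in induced libraries. Both ratios were lower in every induced library than in any control.

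The ratio of PARP9 to PARP14 on chromosome 3 was 0.503, 0.51 and 0.553 in control and 0.416, 0.389 and 0.37 in induced libraries. PARP9 was also set against DTX3L, which starts beside it on the opposite strand, a pair chosen after its values were seen. The ratio was 1.12, 1.1 and 1.12 in control and 0.87, 0.82 and 0.74 in induced libraries. The genes share 139 exon bases, and the header of the counts names no strand option. The ratios of the IFIT and IFITM neighbours overlapped between the groups. These ratios describe the 6 libraries and were given no test.

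**Figure D4:**
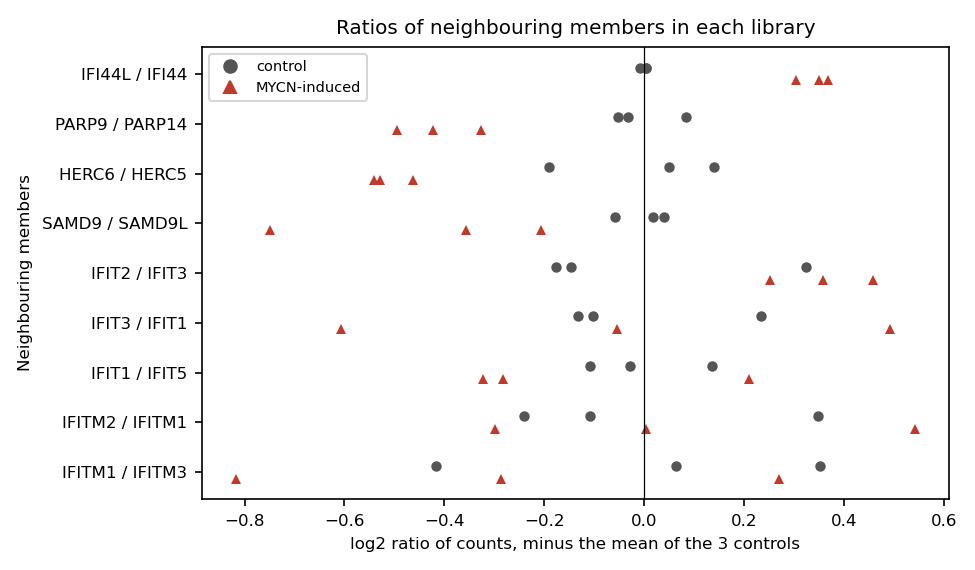
Ratio of the counts of neighbouring members in each library (log2, minus the mean of the 3 controls), with controls as circles and MYCN-induced libraries as triangles. IFI44L over IFI44 lies above all controls in the induced libraries, PARP9 over PARP14, HERC6 over HERC5 and SAMD9 over SAMD9L lie below, and the IFIT and IFITM pairs overlap.

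The genes around the response were read from 8 lists of 151 genes, of which 111 were tested and 7 called, 5 higher and 2 lower. Over all tested genes, 1.02% were called higher and 2.38% lower. Of the 5 higher calls, 4 were genes of the integrated stress response. The ligands themselves were nearly absent. Of 21 interferon genes, 12 had 0 counts in all 6 libraries and 7 had between 1 and 25 counts over the 6, among them IFNB1 with 1 count. Only IFNE and IFNK, interferons of epithelial tissues, were tested. IFNE was at 0.735, 0.677 and 0.591 CPM in control and 0.308, 0.279 and 0.248 CPM in induced libraries. All induced values were below all controls, and IFNE fell by a log2 fold change of -1.27 (SE 0.20, edgeR adjusted p = 0.0191). The level is low, at 59.5 to 77 counts per control library and 20 to 26 per induced library, and the call was lost when any control or induced replicate 1 or 2 was left out (adjusted p up to 0.11). IFNK, at 0.591 to 0.754 CPM in control and 0.504 to 0.770 CPM in induced libraries, overlapped (log2 fold change -0.11).

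Of the interferon receptors and their kinases none was called by edgeR on all libraries. The kinases JAK1 and TYK2 averaged 13.8 and 11.2 TPM and differed by -0.14 and 0.05 on the log2 scale. The receptor chain IFNAR1 was at 39.5 to 41.4 CPM in control and 46.3 to 51.3 CPM in induced libraries, a log2 fold change of 0.28 that missed the threshold in edgeR (adjusted p = 0.077) and passed it with DESeq2 (adjusted p = 0.0184). Without induced replicate 3 it was 0.26 and passed in edgeR too (adjusted p = 0.0457). IFNAR2 differed by 0.01.

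Of the sensors, adaptors and kinases upstream of interferon, 16 of 18 were tested and none was called by edgeR or DESeq2 (median log2 fold change 0.03). The most abundant per length were the DNA sensor IFI16 (88.2 TPM, log2 fold change -0.07), the RNA-dependent kinase EIF2AK2 (24.6 TPM, 0.07) and the adaptor MAVS (22.7 TPM, -0.07). The DNA sensor CGAS stayed at or below 0.0564 CPM in every library, and ZBP1 was at 0. Among the 6 genes that edit or unwind double-stranded RNA none was called by edgeR on all libraries (median -0.02), and DESeq2 called PNPT1. DHX9, an RNA helicase, was at 521, 499 and 472 CPM in control and 521, 497 and 438 CPM in induced libraries. Its groups overlapped (log2 fold change -0.04, SE 0.08). The editor ADAR differed by 0.02, and the mitochondrial RNA-degrading enzyme PNPT1 by 0.39 (adjusted p = 0.0843 by edgeR and 0.0245 by DESeq2). PNPT1 was at 0.48 and passed in edgeR without induced replicate 3 (adjusted p = 0.0141). The 12 negative regulators held no call by edgeR on all libraries (median 0.05). At an unadjusted p under 0.05, 4 of them were higher and 0 lower, against 8.13% and 10.6% of all tested genes. DESeq2 called NLRC5 and SOCS3 higher (adjusted p = 0.0115 and 0.0338), where edgeR gave log2 fold changes of 0.83 and 0.45 with adjusted p of 0.102 and 0.113. PTPN11 alone was called by edgeR without induced replicate 3 (0.20, adjusted p = 0.0444). The most abundant were PTPN11, TRIM28 and PTPN1, at log2 fold changes of 0.16, -0.01 and 0.03.

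A further 49 interferon-stimulated genes, of which 39 were tested, served as a wider reading of the response. Their median log2 fold change was 0.09, and 1 was called higher by edgeR, where 1.02% of all tested genes were called higher. DESeq2 called 6 higher (GBP1 to GBP4, DDX60 and DDX60L) and 1 lower (TDRD7), against 3.11% and 4.12% of all genes. Without induced replicate 3, edgeR called 8 higher and 0 lower, against 3.68% and 4.44% of all genes. At an unadjusted p under 0.05, 14 of the 39 (35.9%) were higher and 2 (5.13%) lower, against 8.13% and 10.6% of all tested genes. GBP1, a guanylate-binding GTPase induced mainly by interferon gamma, was at 4.61, 5.05 and 4.69 CPM in control and 6.69, 6.72 and 7.19 CPM in induced libraries. The groups were well separated, and GBP1 rose by a log2 fold change of 0.52 (SE 0.10, edgeR adjusted p = 0.0372). The call was lost with the replicate block (adjusted p = 0.0694 by edgeR) and when any control or induced replicate 1 or 2 was left out (up to 0.17). In 16 of the 39 (41.0%) every induced library lay above every control and in 3 (7.69%) below, where all tested genes gave 11.5% and 14.7%. The 4 tested members of the GBP family, GBP1 to GBP4, were all among the 16, at log2 fold changes of 0.52, 1.02, 0.86 and 0.36. For GBP2, GBP3 and GBP4, which were singled out after their values were seen, the adjusted p from edgeR was 0.0661, 0.0847 and 0.103. Without induced replicate 3 the GBP2 log2 fold change was 0.65 and that of GBP3 was 0.56. The most abundant genes of this list per length, LGALS3BP, UBE2L6 and LAP3, were at log2 fold changes of 0.19, -0.07 and 0.30, with no call by edgeR on all libraries. The chemokine CXCL10, a sensitive reporter of interferon, had 1 count in induced replicate 3 and 0 in the other 5 libraries.

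**Figure D5:**
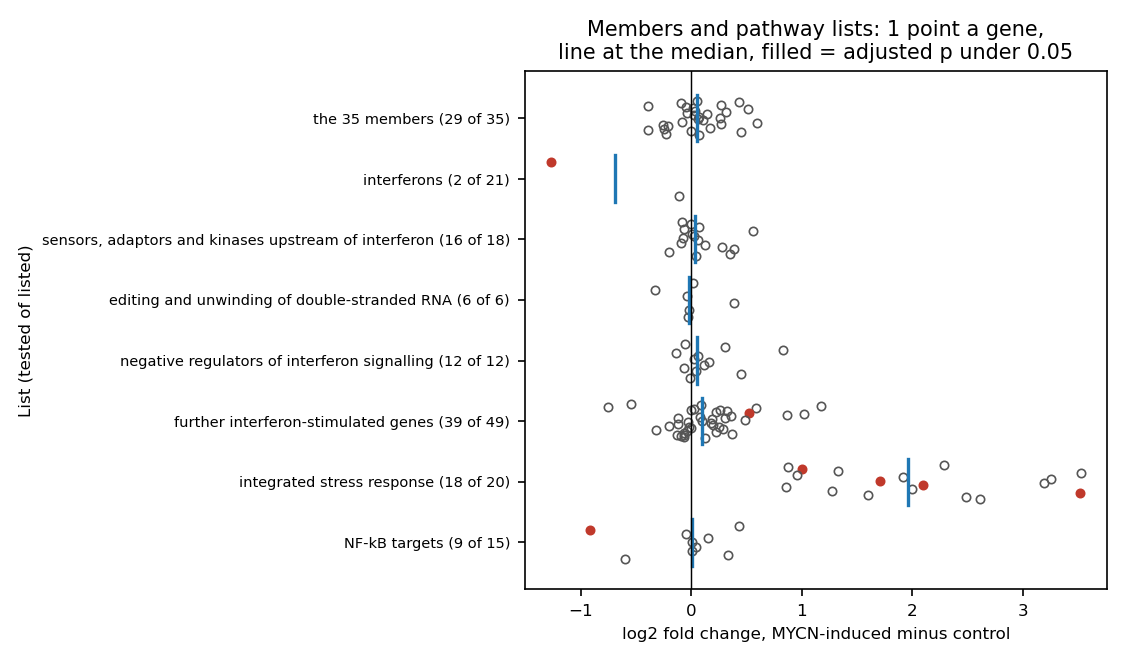
Log2 fold change (MYCN-induced minus control) of each tested gene of the members and of 7 pathway lists, with a line at the median of each list and filled points for an adjusted p under 0.05. The interferon-related lists shown with more than 2 tested genes have medians from -0.02 to 0.09, while the integrated stress response has a median of 1.96, which is 0.77 without induced replicate 3.

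The scale of other changes in the same libraries is seen in the integrated stress response, a programme that ATF4 runs, for instance when amino acids are short. What set it off here was not tested. ATF4 was at 189, 189 and 204 CPM in control and 319, 300 and 547 CPM in induced libraries. It rose by 1.0 on the log2 scale (SE 0.21, edgeR adjusted p = 0.0475) and by 0.68 without induced replicate 3. MTHFD2, PHGDH and SLC7A11 also passed, and the median over the 18 tested genes was 1.96, or 0.77 without induced replicate 3. These 4 calls were lost without any of the controls or without induced replicate 1, and that of SLC7A11 with the replicate block (adjusted p = 0.0551 by edgeR). MTHFD2 is also named in the paper as a MYCN target, measured there to check the induction. The log2 fold changes of MTHFD2, PHGDH and SLC7A11 were 1.26, 1.40 and 2.07 without induced replicate 3, where edgeR called 11 of the 18 genes. Of the abundant genes of that list, SHMT2 and DDIT4 had log2 fold changes of 1.27 and 1.92, with adjusted p of 0.112 and 0.158 from edgeR, and these fold changes were 0.67 and 0.63 without induced replicate 3. The NF-kB targets, which share upstream sensors with the interferon response, had a median of 0.01 over 9 tested genes. CCL2, a chemokine that draws monocytes, was at 1.06, 1.06 and 0.936 CPM in control and 0.585, 0.569 and 0.472 CPM in induced libraries. It fell by a log2 fold change of -0.91 (SE 0.17, edgeR adjusted p = 0.0313), whereas NFKBIA, NFKB1 and BCL3 were at 0.04, 0.15 and 0.43 and were not called. The call of CCL2 was lost when any library other than induced replicate 3 was left out (adjusted p up to 0.17).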

How the data were processed

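Ribosomal RNA was removed from total RNA of 3 control and 3 MYCN-induced cultures, and paired-end libraries were made with a stranded kit. The authors deposited estimated counts per gene, made with featureCounts over exons from unique STAR 2.7.1a alignments to GRCh38. Per the file headers, version 1.6.4 shared pairs overlapping several genes in equal fractions and no strand option was set, whereas the submitters' processing notes name version 1.5.1 and the methods a strand option. Between 31.9% and 33.4% of the values above 0 were not whole, and all were rounded for testing. The 92 spike-in sequences were at 0.

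Symbols were matched through GENCODE gene names (99.72% of identifiers), and older symbols through RefSeq. A gene entered the test if 3 or more libraries held 10 or more of its counts. The test used edgeR 4.0.16 (R 4.3.3, TMM normalization, quasi-likelihood test, Benjamini-Hochberg adjustment over all 29086 genes, threshold 0.05), without a replicate block. The dispersion gave a biological coefficient of variation of 0.153. CPM are TMM-normalized, and TPM were computed from the deposited exon lengths. Replicates of a group differed by more than sampling noise (chi-square per gene 12.1 to 146), so each counted as 1 sample. Where a library had 0 counts, 3 counts were taken as the upper limit.

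Values per library are given for members past the threshold under any setting, for the 3 most abundant per length of each role group and for every member below the count filter. In the pathway lists, genes past the threshold and the 3 most abundant are named. The members and lists were chosen with earlier results of these data known, and the lists come from general knowledge. As alternatives, TMM was replaced by upper-quartile scaling or by library size, and edgeR by DESeq2 1.42.0. The count filter was dropped or raised to 100 counts in all libraries, and a replicate block was added. Each library was left out once, and thresholds of 0.01 and 0.1 were applied. Counts were simulated for the 29086 tested genes, with 200 of them changed 2-fold, and 28609 passed the count filter again. Of the 200 changed genes, edgeR called 104 (with 7 unchanged genes) and DESeq2 128 (with 32). Changed genes removed by the filter count as not called. Among the 126 changed genes with a mean of at least 100 counts, edgeR called 99. Promoter windows are RefSeq sequences of GRCh38.p14. Circular RNA, protein and growth measurements were not analysed here.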

Additional observations from a re-analysis of the deposited data

How the results depend on the processing

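Over the members, 401 alternative values were computed. No member was called in the main test, so no call could be lost or change direction. Of these values, 391 kept their side of the threshold, and 10, from IFIH1, HERC5, SAMD9L, STAT2 and PARP9, newly passed it. Among the 10 are the unchanged main values of IFIH1, HERC5 and SAMD9L, which passed only the looser threshold of 0.1. Members called higher were 3 with DESeq2 and 3 at a threshold of 0.1 (none in edgeR's test at 0.05), and 0 to 2 when 1 library was left out, where members called lower were also 0 to 2. Both maxima came without induced replicate 3. The median log2 fold change of the members was 0.02 under both upper-quartile and plain library-size scaling, 0.07 with DESeq2, 0.06 without a count filter and 0.04 to 0.09 with 1 library left out.

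Pathway list genes called higher, 5 as reported, were 9 with upper-quartile normalization, 19 with DESeq2, 14 without a filter, 2 with at least 100 counts, 0 at a threshold of 0.01, 13 at 0.1 and 0 to 22 with 1 library left out. Those called lower, 2 as reported, were 0 with at least 100 counts and at 0.01, and 0 to 2 with 1 library left out. Over all genes, 298 were called higher and 692 lower. With DESeq2 there were 904 and 1199, at 0.01 36 and 145, and at 0.1 706 and 1242. Without a filter 470 were called higher, and with at least 100 counts 404 were called lower. With 1 library left out the counts ran from 18 to 1060 higher and from 72 to 1279 lower, highest without induced replicate 3 and lowest without control replicate 2. The log2 fold change of MYCN stayed between 2.63 and 2.74.

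Same-numbered libraries had correlations of their deviations from the group means of 0.30, 0.01 and 0.09 (mean 0.13), against a mean of -0.07 for the others. The labels do not state whether equal numbers mark a shared experiment, and these values do not settle it. The block was therefore run as an alternative only. With it, the adjusted p from edgeR went from 0.536 to 0.186 for ISG15 and from 0.46 to 0.189 for IFITM3. That of IFIH1 went the other way, from 0.0722 to 0.096. With the replicate block no member was called higher or lower, 4 pathway genes were called higher and 2 lower, and 265 genes were called higher and 575 lower overall. Depth limits the 6 untested members, MX1 and IRF7.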
